A study of Mus musculus with 6 samples.

Results

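The cytosolic ribosomal protein genes were taken from the murine count table by symbol: names of the form Rpl or Rps with a number and at most a short suffix, plus Rplp0, Rplp1, Rplp2 and Rpsa. The rule matched 89 rows, of which 6 are annotated as pseudogenes and were left out, which gave 83 genes of the 54232 in the table. They comprise 48 genes of the large subunit, 32 of the small subunit and 3 of the ribosomal stalk, and 6 of the 83 are paralogues whose symbol ends in l or l1. The rule uses no measured value.

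Ribosomal proteins are assembled with ribosomal RNA in the nucleolus into a small subunit, which decodes the mRNA, and a large subunit, which forms the peptide bond. Their mRNAs are among the most abundant of a growing cell, and most begin with a run of pyrimidines at the cap (a terminal oligopyrimidine, or TOP, motif) through which mTORC1 and LARP1 set their translation. Surplus ribosomal proteins, RPL5 and RPL11 foremost, bind MDM2 and so stabilise p53, and RPS15 is recurrently mutated in human chronic lymphocytic leukaemia (CLL).

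The study asked how inhibition of casein kinase 1 delta and epsilon acts on CLL. Leukaemic cells of Eµ-TCL1 donor mice, in which an immunoglobulin enhancer and promoter drive the TCL1 oncogene in B cells, were injected into the peritoneum of wild-type C57BL/6J recipients once at least 60% of donor blood leukocytes were CLL cells. The CK1i group (3 libraries) received 50 mg/kg PF-670462 in 10% kolliphor/PBS by mouth, and the CTRL group (3 libraries) received 10% kolliphor/PBS alone. Both groups carry transferred Eµ-TCL1 leukaemia, grown in a wild-type host with its own immune cells and stroma. Dosing began on day 5 after transfer with 5 treatment days followed by 2 free days, lasted 8 weeks, and ended when the vehicle group passed the same 60% limit. Splenic CLL cells were sorted and sequenced from the 3′ ends of their mRNAs with single reads of 75 bases. The labels used here give neither the ages of the mice nor the number of donors, and the labels leave unsaid whether every library is a separate mouse, so the p-values reflect the spread between samples that may be technical.

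The libraries held 2472064 to 3105137 counts, and 1 count was worth 0.326 to 0.401 CPM, the count rescaled to a common library size. All 6 carried 1 batch label. The labelled cell type matched its markers: all 10 CLL and B-cell markers were tested and summed to between 16360 and 21290 CPM in CK1i and 18550 to 22100 CPM in CTRL. T-cell markers summed to at most 12.8 CPM in any library. The 8 neutrophil markers summed to 0 to 3.62 CPM in CK1i and 0 to 0.399 CPM in CTRL, with Ly6g, Mpo, Elane and Camp at 0 throughout. The 10 monocyte and macrophage markers summed to 34.6 to 40.8 CPM in CK1i and 24.1 to 27.9 CPM in CTRL, with Cd14 at 0, and 7 stroma and endothelium markers to 163 to 177 CPM and 176 to 191 CPM, with Kdr, Col3a1 and Pdgfra at 0. The 6 plasma-cell markers overlapped between groups, at 580 to 1513 CPM in CK1i and 1056 to 1747 CPM in CTRL. The part of these cells in the results was not tested, and in such bulk samples fewer cells of a type and less RNA per cell cannot be told apart.

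The genomic starts of these genes show the pyrimidine tracts for which the family is known. RefSeq promoters on GRCm38.p6 were matched for 63 of the 83 genes (75 annotated starts). A run of at least 8 C or T letters, read on the sense strand within 20 bases of the start, was present at 41.3% of the 75 starts and at 16% of all 32851 starts of the table. The following windows of 30 bases, with the annotated start after base 15 and the longest run in capitals, were chosen because they show the long tracts of members of each kind, the stalk gene Rplp2 and the paralogue Rpl22l1 included.

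Rpl15, large subunit (chr14:18270972-18271001, minus strand): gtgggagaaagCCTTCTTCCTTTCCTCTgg
Rpl35, large subunit (chr2:39005117-39005146, minus strand): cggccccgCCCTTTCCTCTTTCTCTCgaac
Rps10, small subunit (chr17:27635230-27635259, minus strand): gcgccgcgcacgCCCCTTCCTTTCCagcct
Rps18, small subunit (chr17:33955651-33955680, minus strand): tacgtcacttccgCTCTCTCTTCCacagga
Rplp2, stalk (chr7:141447636-141447665, plus strand): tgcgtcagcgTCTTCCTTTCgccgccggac
Rpl22l1, paralogue of Rpl22 (chr3:28805493-28805522, plus strand): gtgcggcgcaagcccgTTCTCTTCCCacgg

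Other annotated starts hold only short runs, though an annotated start may not be the start used in these cells. Rpl41 encodes one of the smallest proteins of the cell, and Rpl10 a late-joining protein at the subunit interface. The next windows show short runs for both and for the MDM2-binding Rpl23.

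Rpl23 (chr11:97782425-97782454, minus strand): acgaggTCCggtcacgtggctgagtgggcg
Rpl41 (chr10:128549154-128549183, minus strand): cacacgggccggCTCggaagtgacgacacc
Rpl10 (chrX:74270801-74270830, plus strand): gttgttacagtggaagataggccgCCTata

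Over the whole promoter entry, 250 bases before to 50 bases after the start, the letters CCGGAAG of an ETS-type core were found on either strand at 36% of the members' starts and 8.86% of all starts. CACGTG, an E-box of the kind MYC and MAX bind, was at 10.7% and 7.15%, and TATAAA at 9.33% and 13.6%. A run that reaches 4 or more pyrimidines directly from the annotated start was found at 22.7% of the members' starts and 6.86% of all starts. These are matches of letters, and no overlap between these motifs was removed.

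The members' counted levels ran from 0 counts to a mean of 3419 CPM. Because the method tags mRNAs near their 3′ ends, CPM were not divided by gene length. Rps20, a small-subunit protein of the head domain (chr4:3831334-3835665, minus strand), was at 3743, 3434 and 3276 CPM in CK1i 1, 2 and 3 and at 2843, 3145 and 4074 CPM in CTRL 1, 2 and 3, and ranked 15 among the 10067 tested genes. Rpl8, a large-subunit protein close to the site of peptide bond formation, followed at 2872, 2622 and 1976 CPM in CK1i and 1917, 2186 and 3191 CPM in CTRL. In both genes CTRL 1 was the lowest library and CTRL 3 the highest, and the CK1i values lay inside the CTRL range.

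Rpl37, a large-subunit protein, was at 2045, 1841 and 2476 CPM in CK1i and 1820, 1708 and 1773 CPM in CTRL, so that the lowest CK1i library lay just above the highest CTRL library. Rplp1, an acidic stalk protein, was at 1603, 1418 and 1281 CPM in CK1i and 1016, 1470.2 and 1593 CPM in CTRL. The groups overlapped for Rplp1. The 5 members with the highest means held 39% of all counts on the members. In all, 10 members had a mean of at least 1000 CPM and held 60.1% of the members' counts, 36 had at least 100 CPM, 68 at least 10 CPM, and 5 were under 1 CPM.

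**Figure D1:**
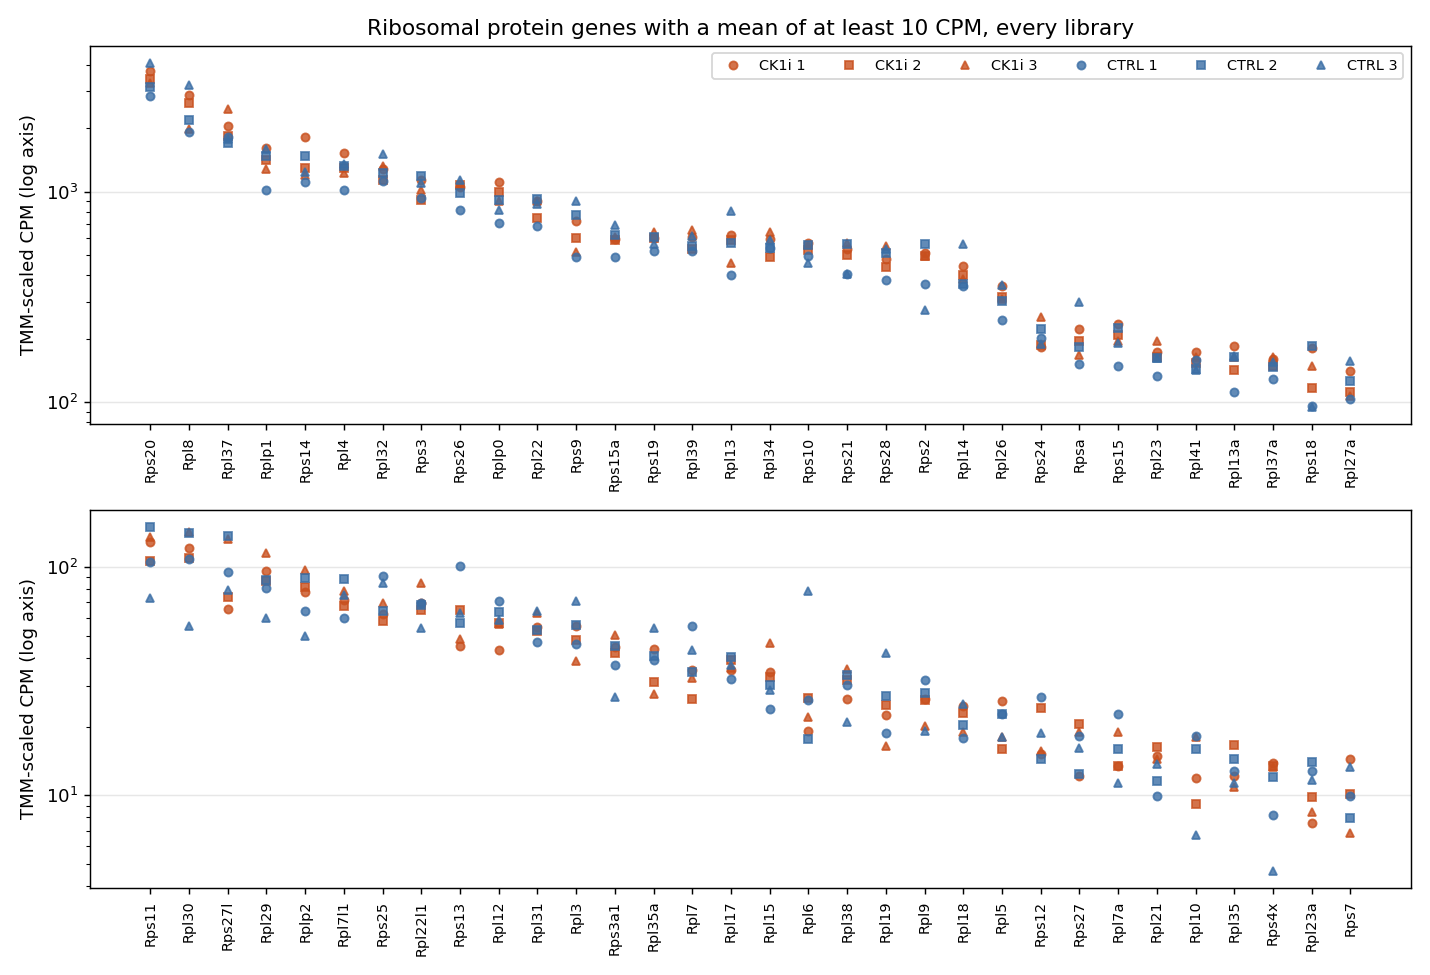
Normalised level of each member with a mean of at least 10 CPM that is reported here (64 genes), in CPM scaled by library size on a log axis, ordered by mean and split over 2 panels; orange points are the CK1i libraries, blue points the CTRL libraries, and the symbol gives the replicate. Levels ran from Rps20 to near 10 CPM, CTRL 1 lay at the bottom for many genes of the upper panel, and Rpl6 in CTRL 3 stood at 78.8 CPM, above 17.6 to 26.7 CPM in the other libraries.

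Several genes whose proteins every ribosome holds were nearly without counts. Rps6, the small-subunit protein phosphorylated by S6 kinase, had 7 counts over the 6 libraries, Rpl24 had 6, Rpl10a 21 and Rps16 32, and none of the 4 passed the filter on low counts. Rps27a, encoded as a fusion with ubiquitin, had 58 counts. Of the ribosomal proteins encoded under other names, Fau had 5 to 20 counts a library, whereas Rack1, a scaffold on the small subunit, was at a mean of 1893 CPM in CK1i and 1888 CPM in CTRL (log2 fold change 0.00 ± 0.16 SE). The counts were therefore set beside the sequences of the transcript ends.

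Of the last 300 bases of each member's transcript, cut into windows of 75 bases (the read length), the share of windows also present in another gene's transcript ranged from 0% to 100%. Among the 77 members that are not paralogues, the 24 with under 10% shared windows had a median level of 312 CPM, the 15 with 10% to under 50% had 200.3 CPM, and the 38 with 50% or more had 25.2 CPM. The ranges overlapped: 9 members with at least 50% shared windows reached 100 CPM, and 5 members with none shared, Rpl5, Rpl6, Rpl11 and Rps16 among them, stayed under 50 CPM. Of the 4 genes below the filter named above, Rpl24, Rps6 and Rpl10a had 79.2%, 81.4% and 85.8% shared windows and Rps16 had 0%. Low levels thus occurred with and without shared windows.

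**Figure D2:**
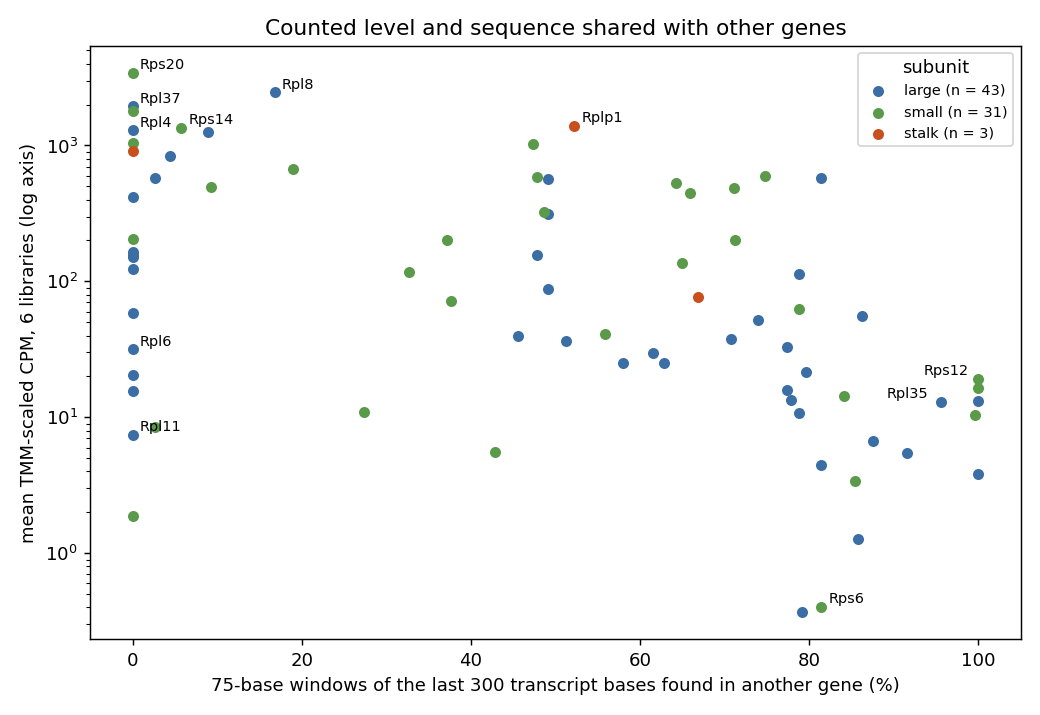
Mean level of each of the 77 members that are not paralogues, in CPM over the 6 libraries on a log axis, against the percentage of its 75-base windows found in another gene, coloured by subunit. Rps20, Rpl37 and Rpl4 sit at 0% and above 1000 CPM, Rps12 and Rpl35 at 95.6% or more and under 20 CPM, and Rps6 at 81.4% with under 1 CPM, while Rpl6 and Rpl11 are low at 0%.

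Other genes that share sequence with the members took many counts. In all, 404 such genes, called copies here, share at least 1 of the 226 windows (fewer for Rps28, whose transcript is shorter) with one of 60 members. Percentages of windows here are of 226. Of these, 392 are annotated as processed pseudogenes, 11 as protein-coding and 1 as a lincRNA. The overlap varied: 70 copies shared at least 50% of the windows and held 38540 counts, and 131 shared under 10% and held 8841. Together the copies had 65823 counts against 479698 on the members themselves, and for 23 members the copies held more counts than the member. Rpl10-ps3 (ENSMUSG00000058443, chr9:50344201-50344968, minus strand) had 11940 counts and Rpl10 (ENSMUSG00000008682, chrX:74270812-74273135, plus strand) had 220. Rps27rt had 4023 counts and Rps27 had 277, and for Rpl35 the copy Gm2000 had 3797 counts and the member 221.

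The last 60 coding bases show how little separates these 3 pairs. They are the same in Rpl10 and Rpl10-ps3, in Rps27 and Rps27rt and in Rpl35 and Gm2000, so each is printed once, in lower case with no base to mark.

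Rpl10 and Rpl10-ps3: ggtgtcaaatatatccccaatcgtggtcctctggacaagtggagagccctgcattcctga
Rps27 and Rps27rt: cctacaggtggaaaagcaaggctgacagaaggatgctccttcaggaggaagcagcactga
Rpl35 and Gm2000: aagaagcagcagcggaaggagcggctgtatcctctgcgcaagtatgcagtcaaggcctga

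The levels of the members in such pairs are therefore uncertain, and how reads that fit several places were handled is not known here. With the copies summed in, Rpl10 stood at 726, 694 and 598 CPM in CK1i and 584, 647 and 1038 CPM in CTRL, in place of 9.13 to 18.05 and 6.68 to 18.1 CPM. Rps6 stood at 28.1 to 38.7 CPM in CK1i and 20.9 to 45.8 CPM in CTRL, and Rpl24 stayed at or below 5.98 CPM. Summing raised the level of Rpl10 far more than that of Rpl24 and gave no separation of the groups for Rpl10 or Rps6.

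As a share of all counts, the 83 members took 3.06%, 2.79% and 2.85% in CK1i 1, 2 and 3 and 2.34%, 2.86% and 2.995% in CTRL 1, 2 and 3. The means were 2.90% ± 0.138 (SD, n = 3) in CK1i and 2.73% ± 0.346 (SD, n = 3) in CTRL. CTRL 1 was the lowest library and the other 5 lay between 2.79% and 3.06%, so the difference between the means was smaller than the SD of the CTRL group. The large subunit took 1.16% to 1.27% in CK1i and 1.00% to 1.30% in CTRL, the small subunit 1.38% to 1.51% and 1.16% to 1.45%, and the stalk 0.23% to 0.273% and 0.176% to 0.25%, so that CTRL 1 was lowest for each. The copies took 0.394%, 0.371% and 0.33% in CK1i and 0.299%, 0.366% and 0.539% in CTRL. Here CTRL 3 stood above the rest, with 18 copy counts for every 100 on members, against 11.6 to 13.3 in the other libraries.

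**Figure D3:**
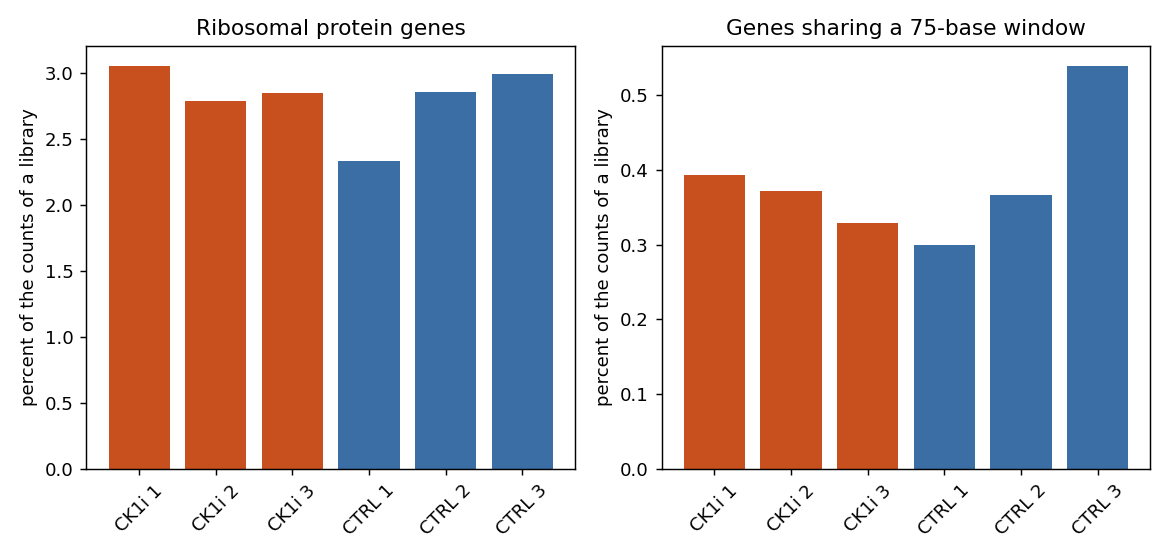
Percentage of each library's counts on the 83 members (left) and on the 404 copies that share a window with them (right), with CK1i libraries in orange and CTRL libraries in blue; bars start at 0 and each is 1 library. CTRL 1 had the lowest share on members (2.34%) and CTRL 3 the highest share on copies (0.539%).

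CTRL 1 and CTRL 3 stood apart in different ways. Of the 76 members that passed the filter on low counts, 32 (42.1%) were lowest in CTRL 1, where 21.8% of all tested genes were lowest. Among the 46 members with a mean of at least 50 CPM, 39 lay below their 6-library mean in CTRL 1, with a median deviation of −0.24 on the log2 scale. In CTRL 1 most of these 46 members thus lay low, whereas in CTRL 3 they spread in both directions. The standard deviation of the same 46 deviations was 0.336 in CTRL 3, against 0.108 to 0.225 in the other libraries. It was 0.223 for the 4064 tested genes of that level in CTRL 3. The wide spread was also present in the 18 tested members with no shared window, at 0.462 in CTRL 3 against 0.101 to 0.247 elsewhere. Over all 76 tested members the standard deviation was 0.307 in CTRL 1 and 0.4155 in CTRL 3, against 0.218 to 0.262 in the other libraries. Of the 76, 11 (14.5%) were highest in CTRL 1, where 20.8% of all tested genes were highest.

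Rpl6, a large-subunit protein (chr5:121204481-121209241, plus strand) with no shared window, was at 19.1, 26.7 and 22.1 CPM in CK1i and 26.3, 17.6 and 78.8 CPM in CTRL, which makes CTRL 3 the only library outside 17.6 to 26.7 CPM. Its log2 fold change of CK1i over CTRL was −0.86 ± 0.60 SE, and 0.04 without CTRL 3. Rpsa, the small-subunit protein also known as the laminin receptor, was at 223, 196 and 167 CPM in CK1i and 152, 184 and 298 CPM in CTRL, again highest in CTRL 3. Rpl30, which belongs to the large subunit, ran the other way, at 122, 109 and 142 CPM in CK1i and 109, 141 and 55.1 CPM in CTRL. CTRL 3 was its lowest library. Without CTRL 3 the fold change of Rpl30 went from 0.30 to 0.00. Rpl6, Rpl30, Rpl10 and Rpl36, the last pair with few counts, were among the 5 tested members with the widest spread within groups.

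**Figure D4:**
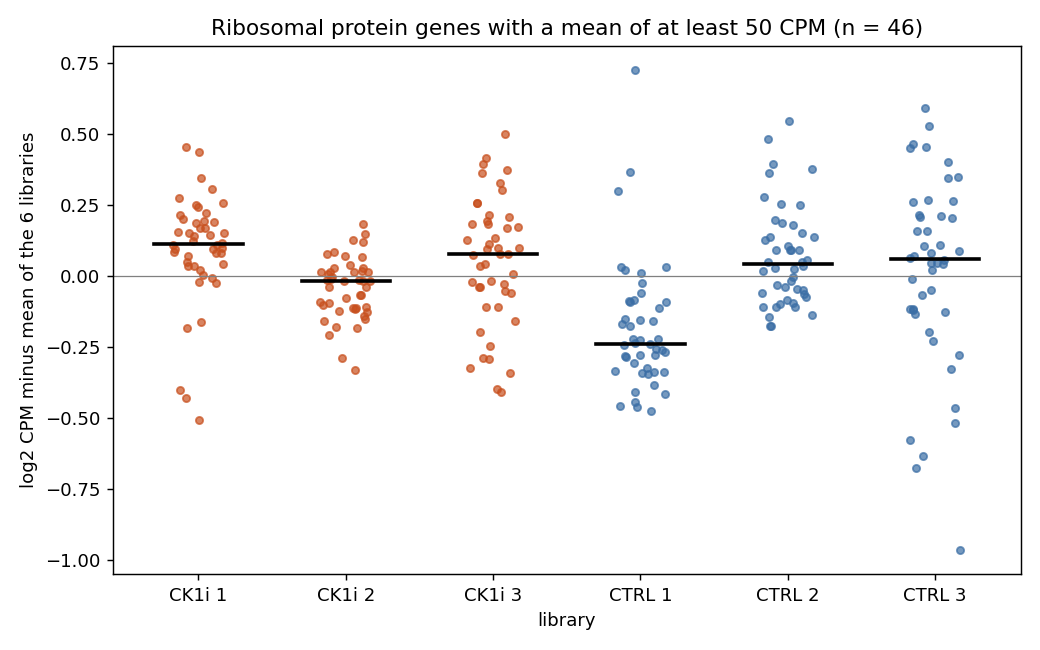
Deviation of log2 CPM from the mean of the 6 libraries for the 46 members with a mean of at least 50 CPM; each point is 1 gene, each black bar the median of a library. The median lay at −0.24 in CTRL 1, and points in CTRL 3 were scattered above and below 0.

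No member differed between CK1i and CTRL after adjustment. In edgeR's quasi-likelihood test, which compares group means against the spread between libraries over 10067 genes, 0 of 76 tested members and 0 of all tested genes (0%) had a Benjamini-Hochberg adjusted p under 0.05. The smallest adjusted p was 0.224 over all genes and above 0.99 for every member. At an unadjusted p under 0.05, 3 members were higher in CK1i (3.95% of 76, against 2.7% of all tested genes) and 3 were lower (3.95%, against 2%). DESeq2 called 0 members (and 5 of all genes) and limma-voom 0 members (and 0 of all genes). At an unadjusted p under 0.05 they had 3 and 5 members, where edgeR had 6. In DESeq2 1.32% of members were higher and 2.63% lower, against 1.025% and 0.67% of all tested genes. In limma-voom it was 3.95% and 2.63%, against 2.84% and 1.94%. Without CTRL 2 edgeR had 15 such members, 11 of them higher (14.5% of 76, against 3.61% of all tested genes in that fit) and 4 lower (5.26%, against 3.12%). It had 3 without CK1i 1 (1.32% higher and 2.63% lower, against 2.75% and 2.46%) and 3 without CK1i 3 (0% and 3.95%, against 2.135% and 1.725%). In these edgeR, DESeq2 and limma-voom fits with all 6 libraries, the members' shares were within 2 percentage points of those of all tested genes. They were further apart in other fits, such as the higher members without CTRL 2 and the lower members with no filter (6.58%, against 1.69%).

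The median log2 fold change of the 76 members was 0.05, beside −0.01 for all tested genes, with 45 estimates above 0 and 31 below; it was 0.01 without CTRL 1 and 0.11 without CTRL 3. The large subunit had a median of 0.03 over 43 tested genes, the small subunit 0.05 over 30. For 66 of the 76 members, all 46 with a mean of at least 50 CPM among them, the estimate plus or minus 2 SE lay inside a 2-fold change in either direction. The SE ranged from 0.132 to 0.599 with a median of 0.194, so that a difference of the size of the SE could not be detected for a member. Larger estimates also went uncalled, such as that of Rpl7 (−0.50 ± 0.20 SE, adjusted p = 0.999 by edgeR).

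**Figure D5:**
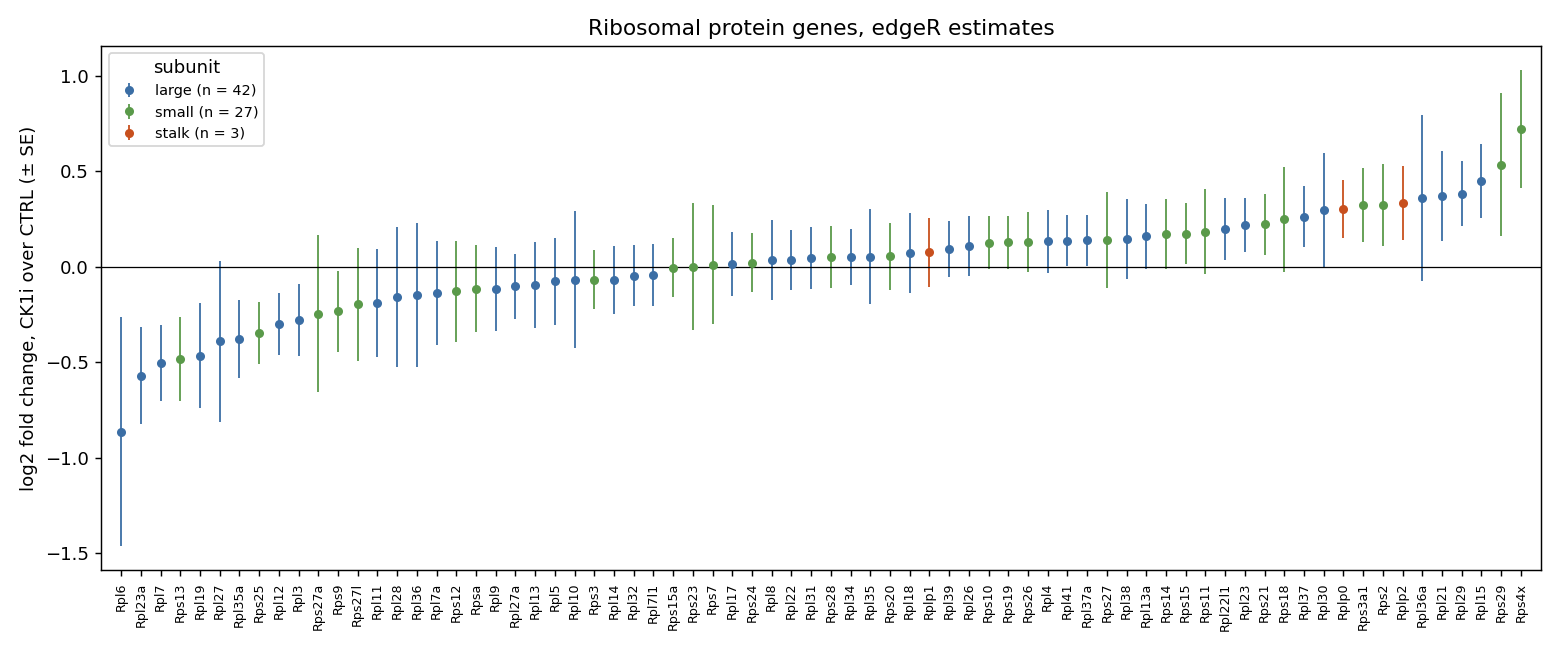
Estimated log2 fold change of CK1i over CTRL for the 72 tested members reported here, ordered, with bars of 1 SE and colours for the subunit. The estimates shown run from −0.86 (Rpl6) to 0.72 (Rps4x), and no member passed the adjusted threshold.

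The 3 members higher at an unadjusted p under 0.05 were Rpl15, Rps4x and Rpl29. Rpl15, a large-subunit protein mutated in some Diamond-Blackfan anaemia, was at 34.5, 32.9 and 46.5 CPM in CK1i and 23.8, 30.3 and 29.0 CPM in CTRL (log2 fold change 0.45 ± 0.19 SE, adjusted p = 0.999 by edgeR). Rps4x, an X-linked small-subunit gene, was at 13.8, 13.4 and 13.2 CPM in CK1i and 8.165, 11.98 and 4.67 CPM in CTRL (0.72 ± 0.31 SE). The groups did not overlap for either gene, and in Rps4x the CTRL values spread while the CK1i values were tight. Rpl29, a small basic large-subunit protein, was at 95.7, 86.8 and 115 CPM in CK1i and 80.6, 87.4 and 59.8 CPM in CTRL, with overlap (0.38 ± 0.17 SE). For Rps4x the fold change was 0.43 without CTRL 3 and 1.065 without CTRL 2. Without CK1i 3 it was 0.28 for Rpl15 and 0.26 for Rpl29, and without CTRL 3 it was 0.24 for Rpl29. With copies summed in it was 0.38 for Rpl15, 0.66 for Rps4x and 0.38 for Rpl29.

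The 3 members lower at that level were Rpl7, Rpl23a and Rps13. Rpl7, a large-subunit protein, was at 35.5, 26.4 and 32.5 CPM in CK1i and 55.4, 34.7 and 43.4 CPM in CTRL (−0.50 ± 0.20 SE). Rpl23a, at the exit of the nascent peptide, was at 7.57, 9.79 and 8.42 CPM in CK1i and 12.8, 14.0 and 11.7 CPM in CTRL, without overlap (−0.57 ± 0.25 SE). Rps13, a small-subunit protein, was at 45.1, 64.6 and 48.5 CPM in CK1i and 101.2, 57.1 and 62.8 CPM in CTRL (−0.48 ± 0.22 SE). The Rps13 value rested on CTRL 1, without which it was −0.19, and Rpl7 was at −0.32 without the same library. With copies summed in, the estimates were −0.25 for Rps13, −0.40 for Rpl23a and −0.44 for Rpl7. Their adjusted p by edgeR was above 0.99.

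The next in order included Rps25 and Rpl12 on the lower side (−0.34 and −0.30) and Rplp0, Rplp2 and Rps3a1 on the higher side (0.30, 0.34 and 0.32). Groups that did not overlap were found for 5 members higher in CK1i (6.58% of the tested members, against 5.22% of all tested genes), which were Rpl15, Rps4x, Rpl37, Rpl21 and Rpl23. On the lower side they were found for 3 (3.95%, against 4.48%), Rpl23a, Rpl12 and Rpl11. Rpl21 was named for this count after its values were seen.

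The stalk genes had the highest subunit median, 0.30, over only 3 genes. The stalk, a base of RPLP0 with RPLP1 and RPLP2 dimers, recruits translation factors to the ribosome. Rplp0 was at 1107, 994 and 899.9 CPM in CK1i and 707, 908 and 816 CPM in CTRL, so that the lowest CK1i library lay just under the highest CTRL library (0.30 ± 0.15 SE). Rplp2 was at 77.7, 81.9 and 97.5 CPM in CK1i and 64.3, 89.4 and 50.1 CPM in CTRL, and Rplp1 differed by 0.08 ± 0.18 SE. For Rplp2, 66.8% of the windows were shared with another gene. Wdr89, a longer gene that shares windows with Rplp2 and was not counted as a copy, held 3201 counts beside 1285 on Rplp2. The summing of copies therefore did not cover it. CTRL 1 was the lowest library for Rplp0 and Rplp1, and CTRL 3 for Rplp2.

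Among the members with a role in p53 surveillance, Rpl5 and Rpl11, which bind MDM2 as part of a particle with ribosomal RNA, were at low counts and close between groups. Rpl5 was at 25.99, 15.98 and 18.05 CPM in CK1i and 22.72, 22.75 and 18.03 CPM in CTRL (−0.08 ± 0.23 SE). Rpl11 was at 6.91, 7.18 and 6.82 CPM in CK1i and 7.455, 8.78 and 7.68 CPM in CTRL (−0.19 ± 0.28 SE), and its groups did not overlap although they lay within 2 CPM of each other. Rpl23 was at 173, 163 and 196 CPM in CK1i and 132, 162 and 163 CPM in CTRL (0.22 ± 0.14 SE). Rpl26, which binds the p53 mRNA, differed by 0.11 ± 0.16 SE.

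Genes known from blood disease did not pass the test either. Rps15, recurrently mutated in human CLL (chr10:80292453-80294114, plus strand), was at 235, 208 and 195 CPM in CK1i and 149, 224 and 192 CPM in CTRL (0.17 ± 0.16 SE), and Gm5781, a processed pseudogene that shares 16 of its windows, held 3222 counts beside the 3391 of the gene. With copies summed in, the Rps15 estimate was −0.01. Rps14, lost in the deletion of human del(5q) myelodysplasia, ranged from 1114 to 1806 CPM (0.17 ± 0.18 SE). Rps19, the gene first tied to Diamond-Blackfan anaemia, ranged from 521 to 646 CPM (0.13 ± 0.14 SE). Rpl22 and Rpl10, both mutated in T-cell leukaemia, differed by 0.04 ± 0.16 SE and −0.07 ± 0.36 SE.

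Of the other members named by the rule, Rps3, at the mRNA entry channel, was at 1134, 916 and 1012 CPM in CK1i and 932, 1184 and 1092 CPM in CTRL (−0.07 ± 0.15 SE). Rpl3, near the site of peptide bond formation, differed by −0.28 ± 0.19 SE, Rps27a by −0.25 ± 0.41 SE, Rps27 by 0.14 ± 0.25 SE and Rpl41 by 0.14 ± 0.13 SE. Each of these estimates was within about 1.5 times its own SE. With copies summed in, Rps27 moved to −0.19 and Rpl41 to −0.08, so their direction depended on the copies.

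The paralogues divided into a counted and an uncounted set. Rpl22l1, a paralogue of Rpl22, was at 69.8, 64.9 and 85.4 CPM in CK1i and 69.6, 67.9 and 54.1 CPM in CTRL (0.20 ± 0.16 SE). Rpl7l1 differed by −0.04 ± 0.16 SE. Rps27l, a p53 target in other cells, was at 65.5, 74.0 and 132 CPM in CK1i and 94.8, 137 and 79.5 CPM in CTRL, with a wide spread in both groups (−0.20 ± 0.30 SE). Rpl3l, of striated muscle, had at most 1 count in a library, and Rpl10l and Rpl39l, of the testis, had 0 counts in all 6, which allows a level of up to 0.177 CPM (3 counts over the 6 libraries together).

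Other parts of the translation and ribosome pathways were read from lists. The 72 tested genes of mitochondrial ribosomal proteins had a median log2 fold change of −0.03. At an unadjusted p under 0.05, 1 was higher and 0 were lower, where 2.7% and 2% of all tested genes were. All CK1i libraries lay below all CTRL libraries for 10 (13.9%, against 4.48% of all tested genes). They lay above them for 3 (4.17%, against 5.22%). Of 21 tested other TOP mRNAs, such as elongation factors, the median was 0.09 with 15 estimates above 0. Their groups did not overlap for 3 higher genes (14.3%, against 5.22% of all tested genes) and 0 lower genes (against 4.48%). Among them, Eif3l and Eif3f, subunits of an initiation complex, differed by 0.26 ± 0.14 SE and 0.24 ± 0.13 SE. The 27 initiation factors had a median of −0.05. An unadjusted p under 0.05 was reached by 0 of them, where 2.7% of all tested genes were higher and 2% lower at that level. The smallest p were those of Eif3g (−0.19) and Eif2b1 (0.28). None of these genes passed the adjusted threshold in edgeR.

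Among 15 tested genes of TOP and mTORC1 control the median was 0.05. Mtor itself differed by −0.17 ± 0.16 SE, Larp1, the repressor of TOP mRNAs, by −0.23 ± 0.15 SE, and Eif4ebp2, an inhibitor of cap-dependent translation, by 0.26 ± 0.14 SE. In the list of MYC, MAX and RNA polymerase I (18 tested, median −0.01), Myc was at a mean of 109 CPM in CK1i and 90 CPM in CTRL (0.28 ± 0.19 SE), and Ubtf, which opens ribosomal DNA to transcription, differed by −0.21 ± 0.15 SE. All of these estimates were within 2 of their SE.

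The ribosome assembly lists had lower medians than the ribosomal proteins. Of 32 nucleolar biogenesis genes, 28 had estimates below 0, and the median was −0.17. At an unadjusted p under 0.05, 4 were lower, where 2% of all tested genes were. Groups did not overlap for 6 lower genes (18.75%, against 4.48% of all tested genes) and 0 higher genes. Nop56, a core protein of the box C/D particles that methylate ribosomal RNA, was at a mean of 45.8 CPM in CK1i and 63.9 CPM in CTRL (−0.48 ± 0.16 SE, adjusted p = 0.858 by edgeR), and Rrp9 differed by −0.51 ± 0.20 SE. Of 26 chaperones, importers and assembly factors of ribosomal proteins, 18 were below 0 with a median of −0.09, led by Efl1 (−0.39 ± 0.17 SE), which releases an anti-association factor from the large subunit, and Ipo4 (−0.36 ± 0.18 SE). Of 13 tested genes of ribosomal protein surveillance through MDM2 and p53, 12 were below 0, and the median was −0.15. In this list 3 were lower at an unadjusted p under 0.05, where 2% of all tested genes were. Cdkn2a, which encodes the MDM2 inhibitor ARF, differed by −0.70 ± 0.25 SE and the p53 target Zmat3 by −0.48 ± 0.16 SE, while Mdm2 differed by −0.13 ± 0.14 SE and Trp53 by 0.16 ± 0.15 SE. None of these genes passed the adjusted threshold in edgeR, and whether the lists differ from the ribosomal proteins was not tested.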

How the data were processed

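Whole-number counts per gene in 6 libraries (3 CK1i, 3 CTRL) were deposited by the authors, and per the labels' protocols they came from QuantSeq 3′ forward libraries with unique molecular identifiers. Tools named in the submitters' processing notes include STAR 2.7.3a, featureCounts 1.6.3, UMI-tools 1.1.1 and Trimmomatic 0.36, with the build GRCm38.p6. Collapsing of identifiers, strand setting and handling of reads that map to several places are not given in the sources used here; floors therefore cover counting error only.

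Columns were assigned to samples by title. Of 54232 identifiers, 54079 matched GENCODE M21. Low genes were removed by filterByExpr of edgeR 4.0.16 in R 4.3.3 (minimum count 10, minimum total 15). Libraries were scaled by TMM and groups compared by the robust quasi-likelihood F test (two-sided, bias-adjusted form) with Benjamini-Hochberg adjustment over 10067 genes and a threshold of 0.05. CPM are TMM-scaled, log2 CPM use a prior count of 2, and the SE is the log2 fold change over the root of F. On simulated counts, in which no library stood apart, the procedure was tested and recovered most of the largest planted changes. A minimum recovery was required for that size only. Changes were planted only in genes above a set mean level, which some members did not reach. The simulated spread followed the trend over all genes. The planted changes were 2-fold or larger, beyond every member's estimate here (log2 −0.86 to 0.72). Recovery of changes as small as those estimates was not tested. DESeq2 1.42.0, limma 3.58.1 (voom), other scalings and filters, and leaving out each library were the alternatives. Replicate numbers follow accession order and pair nothing.

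Shared windows (75 bases, in the last 300 bases) and copies (annotated pseudogenes or genes spanning at most 2000 bases) were read from GENCODE M21 transcripts, taking the shortest complete principal transcript. Sharing was searched in the sense direction, and 3 longer genes that share windows were not counted as copies. These definitions, the promoter windows, the motifs and the summing of copies were chosen after seeing the data. The members and lists were chosen with earlier results of these data known.

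Members named were those 6 per direction whose p was smallest, the 5 highest by mean CPM, the 5 with the widest spread within groups, and a list of members known from p53 surveillance, blood disease, the stalk and the paralogues. From each other list, up to 2 tested genes with the smallest p were named, with Myc, Mtor, Larp1, Mdm2 and Trp53. Other members and copies named in the text were chosen after their values were seen. Protein sequences were not used here. A few named members are left unreported.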

Additional observations from a re-analysis of the deposited data

How the results depend on the processing

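In edgeR, limma-voom and DESeq2, under every scaling and filter tried and with each library left out, 0 members were called. Members at an unadjusted p under 0.05 numbered 6, and 6 under each other scaling, 8 with no filter and 5 with the stricter filter. There were 5 in limma-voom, 3 in DESeq2, 4 with copies summed in and 3 to 15 when 1 library was left out. With no filter, 3.95% of the 76 members were higher and 6.58% lower (2.36% and 1.69% of all tested genes). The other scalings gave 3.95% in each direction (2.67% to 2.7% and 1.98% to 2.02%), the stricter filter 4.41% and 2.94% (2.64% and 1.94%). In limma-voom the shares were 3.95% and 2.63% (2.84% and 1.94%), in DESeq2 1.32% and 2.63% (1.025% and 0.67%). With copies summed in they were 2.63% and 2.63% (2.74% and 1.99%). The 15 came without CTRL 2, when 11 of 76 members (14.5%) and 3.61% of all tested genes were higher in CK1i, and the cause was not tested. With any other library left out, 0% to 2.67% of members were higher and 2.63% to 5.33% lower. Of all tested genes, 1.73% to 3.07% were higher and 1.65% to 2.84% lower in those fits. The median log2 fold change of the members stayed between −0.01 and 0.11. It was −0.01 with copies summed in (chosen after seeing the data). Rpl10 was 0.0011 in limma-voom. With copies summed in, Rps3a1 was −0.0080, Rps15 −0.013, Rps27a 0.030, Rpl41 −0.080 and Rps27 −0.19. For 16 named members the direction of the log2 fold change turned when 1 library was left out. Their ranges were Rps20 −0.054 to 0.22, Rpl8 −0.11 to 0.28, Rplp1 −0.097 to 0.21, Rpl22 −0.083 to 0.12, Rps14 −0.030 to 0.28, Rpl10 −0.40 to 0.21, Rpl36 −0.45 to 0.18, Rpl5 −0.32 to 0.064. The others ranged as follows: Rps3 −0.16 to 0.0052, Rps27 −0.019 to 0.34, Rpl7l1 −0.18 to 0.090, Rpl26 −0.021 to 0.26, Rps27l −0.58 to 0.045, Rpl6 −1.22 to 0.043, Rpl30 −0.0020 to 0.59 and Rpsa −0.31 to 0.22. None of these estimates passed the adjusted threshold in any of those fits. The cause of each change was not tested. The largest SE, 0.599, was that of Rpl6, where 1 library stood apart. The 7 members below the filter on low counts were not tested with it.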
